A study of Mus musculus with 24 samples.

Results

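The genes of mitochondrial oxidative phosphorylation were examined in fetal mouse skin with both copies, 1 copy or no copy of the Dsg1 gene cluster. Members were all symbols of the read count table that begin with Nduf followed by a, b, c, s or v and a digit, with Uqcr, with Cox followed by 4, 5, 6, 7 or 8, or with Atp5, together with Sdha, Sdhb, Sdhc and Sdhd, provided that they had at least 100 counts summed over the 24 libraries. The names matched 89 of 54087 symbols, and 82 of them reached the minimum. There were 35 members in complex I, 4 in complex II, 8 in complex III, 18 in complex IV and 17 in complex V, and all passed the filter on low counts. Ndufa4 and Ndufa4l2 were counted with complex IV, where the Ndufa4 protein is now placed. Atp5s and Atp5sl were left with complex V by name, although neither is a subunit of the enzyme. The 7 symbols below the minimum were Cox8c, Cox7b2 and the pseudogenes Atp5k-ps2, Atp5l-ps1, Atp5l-ps2, Atp5l2-ps and Uqcrh-ps1, with 0 to 35 counts each.

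Skin was taken on embryonic day 18.5 from wild-type (WT), heterozygous (HET) and homozygous null (KO) mice, with 8 libraries per genotype. The null allele lacks the Dsg1c, Dsg1a and Dsg1b genes in every cell, was made with CRISPR/Cas9 in C57BL/6J zygotes, and goes back to a single founder, so that the KO data describe 1 deletion. Animals of both sexes were used. Libraries that shared a title number and a genotype were summed into 1 replicate, which gave 5 replicates per genotype.

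Oxidative phosphorylation is the last stage of respiration. Complexes I and II pass electrons from NADH and succinate to ubiquinone, complex III passes them on to cytochrome c and complex IV to oxygen, and complex V (ATP synthase) uses the resulting proton gradient to make ATP. Complex II is built from nuclear genes alone, whereas the others also need subunits from mitochondrial DNA. The genes are used in nearly every cell and are abundant in heart, muscle and brown fat, and several subunits of complex IV have a broad form and a form restricted to certain tissues.

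Library totals ranged from 8976020 to 20964721 counts. The 3 Dsg1 genes summed to 806 ± 112 CPM (TMM-scaled counts per 1e+06 counts of the library; SD, n = 5) in WT, 422 ± 51.5 in HET and 0.548 ± 0.343 CPM in KO, and differed between each pair of genotypes (exact permutation test, two-sided, p = 0.00794, the smallest that 5 against 5 allows). Basal keratinocyte markers, Krt5 and Krt14 among them, summed to 4952 to 6769 CPM over the 15 replicates, and skeletal muscle markers to 10541 to 23272 CPM. The labels do not say whether replicates came from separate litters, and p-values measure only the spread between these samples. The 2 libraries of WT replicate 2 went against each other: Y-linked genes summed to 325 CPM in the first and 0.154 CPM in the second, with Xist at 0.264 and 564 CPM. They differed by a chi-square of 15.6 per degree of freedom, against 1.59 to 1.86 for the other 8 pairs of libraries. Without this replicate the median KO vs WT log2 fold change of the members was 0.23, against 0.24 with it, and no member was called.

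Levels in WT skin spanned a wide range. Per kilobase of transcript, the members had 1.62 to 884 CPM per kb in WT, with a median of 117 CPM per kb. Atp5b, the catalytic beta subunit of ATP synthase, was the highest at 884 ± 101 CPM per kb (SD, n = 5), followed by Cox4i1, the broad form of cytochrome c oxidase subunit 4, at 661 ± 117 CPM per kb. Next were Cox6c at 537 ± 153 CPM per kb and Atp5g3, which encodes the membrane ring of ATP synthase, at 521 ± 111. Atp5a1, the alpha subunit, followed at 489 ± 36.9 CPM per kb. These 3 overlapped within their SD, and Cox4i1 overlapped with Cox6c and Atp5g3. Atp5e, also of complex V, stood at 472 ± 131 CPM per kb and Ndufa4 at 461 ± 127 CPM per kb. In complex III the small subunits Uqcrq (449.7 ± 126 CPM per kb), Uqcrh (442 ± 85.9) and Uqcr10 (247 ± 53.4) were highest. In complex I these were the accessory subunits Ndufc2 (246 ± 69.5 CPM per kb), Ndufa6 (199 ± 24.9) and Ndufa7 (184 ± 33.6). Of complex II, the iron-sulfur subunit Sdhb had 143 ± 35.2 CPM per kb, the membrane anchor Sdhd 134 ± 23.8, the flavoprotein Sdha 78.8 ± 10.5 and the anchor Sdhc 53.8 ± 6.80.

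Some of the lowest levels belonged to members whose transcripts resemble those of other genes. Every stretch of 50 bases in the transcripts of each member was looked up in all other annotated genes, and 36 members shared none, while 5 shared at least 50% of their stretches. These were Atp5g2 (100% shared, 1.62 CPM per kb in WT), Atp5l (84.8%, 5.60 CPM per kb), Atp5g1 (66.0%, 10.4 CPM per kb), Cox7c (53.0%, 11.5 CPM per kb) and Atp5h (50.5%, 87.3 CPM per kb), all below the median member. Atp5g1, Atp5g2 and Atp5g3 encode the same mature ring protein, and Atp5l encodes the g subunit of ATP synthase. How reads with several possible origins were counted is not given in the sources used here, so the values of these 5 members are uncertain. Of the 13 subunits that mitochondrial DNA encodes, mt-Atp6, mt-Atp8, mt-Co2, mt-Co3, mt-Nd3 and mt-Nd4l had 0 to 8 counts over all libraries, whereas mt-Cytb had 2144619.

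KO was compared with WT to ask whether loss of Dsg1 goes with a change in the respiratory genes. The criteria for a call were an adjusted p up to 0.1 together with a log2 fold change of at least 1 in either direction. No member met both, and 0 of 82 reached the adjusted p alone (edgeR quasi-likelihood test, Benjamini-Hochberg over 17094 genes). Over all genes tested, 0.322% were called and 1.15% reached the adjusted p. An unadjusted p below 0.05 was found for 4 members (4.88%), against 19.3% of all genes. DESeq2 put 2 of the 80 members to which it gave an adjusted p at 0.1 or less (2.50%), against 8.71% of genes, and limma-voom put 2 of 82 there (2.44%), against 2.89%. With both tools these were Cox4i2 and Atp5l, each lower in KO. The share of members was near that of all genes with limma-voom and below it with DESeq2. DESeq2 gave no adjusted p to Cox7a1 and Cox8b. The log2 fold change was above 0 for 60 members and below 0 for 22, with a median of 0.24 against -0.01 over all genes. Without KO replicate 4 that median was -0.11.

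**Figure D1:**
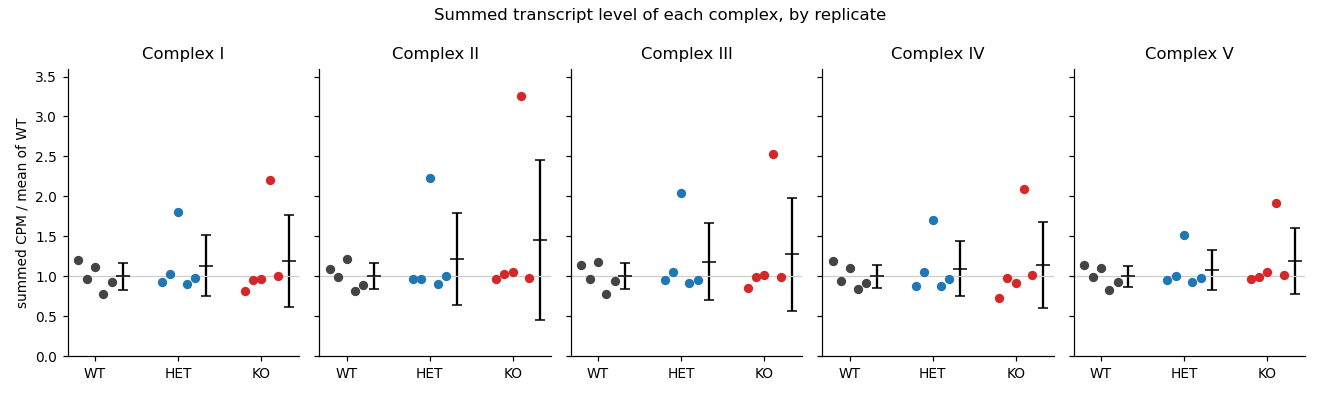
Summed CPM of the members of each complex in every replicate, divided by the WT mean, with 1 point per replicate and the mean and SD of the 5 replicates beside them. HET replicate 3 and KO replicate 4 are the highest points in all 5 panels, at 2.23 and 3.25 times the WT mean in complex II.

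The direction of the median therefore rested on 1 replicate. For complex I, which oxidises NADH, the summed level in replicates 1 to 5 was 3867, 3103, 3556, 2483 and 2988 CPM in WT. It was 2978, 3276, 5778, 2908 and 3141 in HET and 2622, 3039, 3099, 7057 and 3192 CPM in KO. HET replicate 3 and KO replicate 4 were above every other replicate, and the remaining ones overlapped between genotypes. Complex II, the succinate dehydrogenase, gave 797, 720.4, 883, 592 and 645 CPM in WT. It gave 703, 706, 1626, 660.1 and 728 in HET and 706, 744, 769, 2366 and 708 CPM in KO, and the same replicates stood out. The sums of complexes III, IV and V in HET replicate 3 were 2.04, 1.70 and 1.52 times the WT mean, and in KO replicate 4 they were 2.53, 2.09 and 1.92 times. The other 4 KO replicates averaged 93.4% of the WT mean for complex I, 101% for complex II, 96.1% for complex III, 90.8% for complex IV and 100.5% for complex V.

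HET replicate 3 and KO replicate 4 were the 2 highest of the 15 replicates for 66 of 82 members (80.5%), against 8.25% of all genes tested. They were so for 32 of 35 members of complex I, all 4 of complex II, all 8 of complex III, 13 of 18 of complex IV and 9 of 17 of complex V. KO replicate 4 was the highest for 58 members and HET replicate 3 for 15. Both were singled out after their values were seen, so these counts are a description. The 2 libraries of HET replicate 3, 1 from each title series, had a median member at 0.73 and 0.77 above the mean of the 24 libraries on the log2 scale, and the single library of KO replicate 4 stood at 0.97. Across the 3321 pairs of members the median Pearson r was 0.86 over 15 replicates and 0.60 over the other 13, a description of values that share libraries, depth and scaling.

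**Figure D2:**
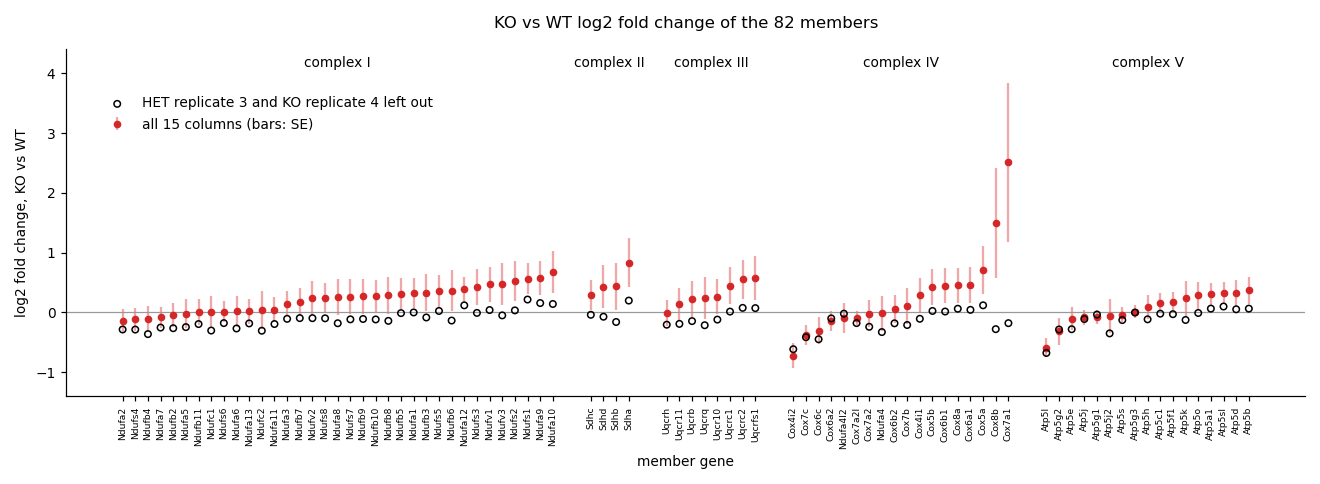
KO vs WT log2 fold change of each of the 82 members by complex, from all 15 replicates and with HET replicate 3 and KO replicate 4 left out. With all replicates the values run from -0.72 (Cox4i2) to 2.51 (Cox7a1), and the median moves from 0.24 to -0.11 when both replicates are left out.

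Without HET replicate 3 and KO replicate 4, 0 of 82 members had an edgeR adjusted p up to 0.1 in KO vs WT, and 6 had an unadjusted p below 0.05 (7.32%, against 13.9% of all genes). Now 62 members had a log2 fold change below 0 and 20 above. The median went from 0.25 to -0.12 in complex I, from 0.43 to -0.06 in complex II and from 0.25 to -0.13 in complex III. In complex IV it went from 0.08 to -0.18, and in complex V from 0.09 to -0.04.

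Both replicates also carried markers of brown fat, a tissue that burns fuel for heat. Ucp1, the uncoupling protein that defines brown adipocytes, was at 377 CPM in HET replicate 3 and 1461 CPM in KO replicate 4, and at 0.146 to 37.5 CPM in the other 13. Cidea, a lipid droplet protein, was at 400.2 and 809.9 CPM against 4.23 to 55.5 CPM. The values were 15.2 and 28.1 CPM against 0 to 1.71 CPM for Otop1, 14.6 and 17.6 CPM against 6.26 to 11.3 CPM for the thyroid hormone deiodinase Dio2, and 2.47 and 6.78 CPM against 0.364 to 3.67 CPM for the fatty acid elongase Elovl3. Summed over these 5 markers the level was 12.6 to 106 CPM in WT, with replicate 3 the highest, 15.1 to 809 in HET and 18.8 to 2324 CPM in KO. General adipocyte markers such as Adipoq summed to 3684 and 4938 CPM in the 2 replicates against 325 to 1412 CPM in the others. Skeletal muscle markers, at 16637 and 13829 CPM, lay inside the range of the others, and dermal fibroblast markers were at 25116 and 14882 CPM against 20158 to 36936 CPM. The part of these cells in the member levels was not tested, and in whole skin the number of cells of a type and the RNA per cell cannot be told apart.

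**Figure D3:**
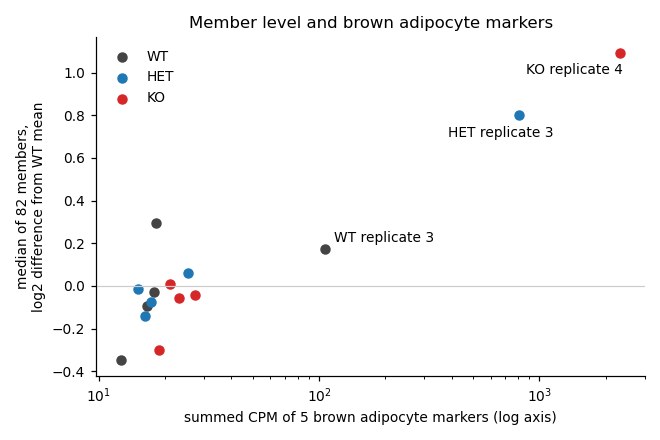
Summed CPM of Ucp1, Cidea, Elovl3, Dio2 and Otop1 (log axis) and the median log2 difference of the 82 members from their WT mean, 1 point per replicate. HET replicate 3 (809 CPM, 0.80) and KO replicate 4 (2324 CPM, 1.09) lie apart from the other 13, whose medians span -0.35 to 0.30.

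In complex I, Ndufs1, its largest iron-sulfur subunit, was the 1 member with an unadjusted p below 0.05. Its level was 138, 133, 144, 112 and 129 CPM in WT, 140.3, 127, 277, 152 and 144 in HET and 147, 155, 158, 361 and 149.9 CPM in KO. All KO replicates lay above all WT replicates, by a wide margin in replicate 4 alone. The log2 fold change was 0.57 ± 0.26 (SE; edgeR adjusted p = 0.254), and 0.22 without HET replicate 3 and KO replicate 4 (adjusted p = 0.297). Ndufs1 and Atp5l were the 2 members whose KO and WT replicates did not overlap (2.44%), against 3.37% of all genes. The accessory subunit Ndufa10 had the highest log2 fold change of complex I, 0.67 ± 0.35 (edgeR adjusted p = 0.299), which was 0.14 without both replicates. Ndufa2, a small accessory subunit, had the lowest, -0.14 ± 0.19 (adjusted p = 0.697).

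Sdha, the catalytic subunit of succinate dehydrogenase, was at 231, 226, 278, 205 and 202 CPM in WT, 226, 209.6, 582, 224 and 236 in HET and 278, 280.3, 265, 982 and 225 CPM in KO. KO replicate 4 had 4.30 times and HET replicate 3 2.55 times the WT mean, and the others overlapped. The KO vs WT log2 fold change was 0.83 ± 0.41 (edgeR adjusted p = 0.281), and 0.20 without them. Sdhb, Sdhc and Sdhd had log2 fold changes of 0.44, 0.29 and 0.43, and of -0.16, -0.04 and -0.07 without the 2 replicates. In complex III the Rieske iron-sulfur protein Uqcrfs1 had the highest value, 0.58 ± 0.37 (edgeR adjusted p = 0.392; 0.07 without both), and the hinge protein Uqcrh the lowest, -0.01 ± 0.21 (adjusted p = 0.977).

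In complex V, Atp5b was at 1413 to 1925 CPM in 13 replicates, at 2765 CPM in HET replicate 3 and at 3838 CPM in KO replicate 4. Its KO vs WT log2 fold change was the highest of the complex, 0.37 ± 0.22 (edgeR adjusted p = 0.361). Atp5a1, with which it alternates in the catalytic head, had 1209 ± 91.2 CPM in WT, 1305 ± 303 in HET and 1489 ± 506 CPM in KO (SD, n = 5). Atp5g3 was at 1.08 and 1.06 times its WT mean in HET replicate 3 and KO replicate 4. Atp5l had the lowest log2 fold change of complex V. It read 3.25, 3.07, 2.66, 3.02 and 3.22 CPM in WT, 3.29, 3.05, 3.20, 2.54 and 4.50 in HET and 1.74, 1.88, 2.17, 2.52 and 1.81 CPM in KO. Every KO replicate was below every WT and HET replicate. The KO vs WT log2 fold change was -0.59 ± 0.16, with an adjusted p of 0.105 by edgeR, 0.0318 by DESeq2 and 0.0908 by limma-voom. Its shared stretches lie in 14 other genes, Atp5l pseudogenes among them.

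Complex IV held the lowest and the highest value. Cox4i2, the lung form of subunit 4, was at 14.4, 12.3, 13.8, 13.4 and 15.9 CPM in WT, 12.6, 16.7, 12.4, 10.1 and 12.8 in HET and 7.66, 5.09, 10.5, 5.71 and 13.3 CPM in KO. Replicates 1 to 4 of KO were below all WT replicates, and replicate 5 was among them. The KO vs WT log2 fold change was -0.72 ± 0.21, with an adjusted p of 0.118 by edgeR, 0.0360 by DESeq2 and 0.0833 by limma-voom. It was -0.62 without HET replicate 3 and KO replicate 4 (edgeR adjusted p = 0.273) and -0.94 without KO replicate 5 (adjusted p = 0.0358). In the latter fit 10.9% of all genes had an adjusted p up to 0.1, against 1.15% with all replicates. Cox4i2 reached that adjusted p in 8 of 30 alternatives. Its broad partner Cox4i1 had 0.29 ± 0.28 (adjusted p = 0.584). Cox7c, with shared stretches as above, was at 6.19 ± 1.07 CPM in WT, 6.86 ± 0.659 in HET and 4.79 ± 1.14 CPM in KO (SD, n = 5), a KO vs WT log2 fold change of -0.37 ± 0.17 (edgeR adjusted p = 0.238).

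Cox7a1, the heart and muscle form of subunit 7a that brown fat also uses, had the highest KO vs WT value of all members. It was at 6.50, 6.23, 22.4, 3.42 and 4.13 CPM in WT, 5.04, 6.32, 101, 5.73 and 5.36 in HET and 6.10, 9.33, 8.89, 216 and 6.14 CPM in KO. KO replicate 4 and HET replicate 3 were far above the rest and WT replicate 3 came next. The log2 fold change was 2.51 ± 1.32 (edgeR adjusted p = 0.313), and -0.18 without HET replicate 3 and KO replicate 4. Cox8b, a form of subunit 8 found in the same tissues, read 30.0, 22.3, 39.1, 13.6 and 22.4 CPM in WT, 19.3, 21.02, 137, 14.6 and 16.6 in HET and 13.6, 20.1, 24.7, 276 and 25.8 CPM in KO. The 3 highest replicates came in the same order as for Cox7a1. Its log2 fold change was 1.49 ± 0.92 (edgeR adjusted p = 0.382), and -0.28 without them. In KO replicate 4 the broad partners Cox7a2 and Cox8a had 1.53 and 2.67 times the WT mean, against 25.3 times for Cox7a1 and 10.8 times for Cox8b.

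**Figure D4:**
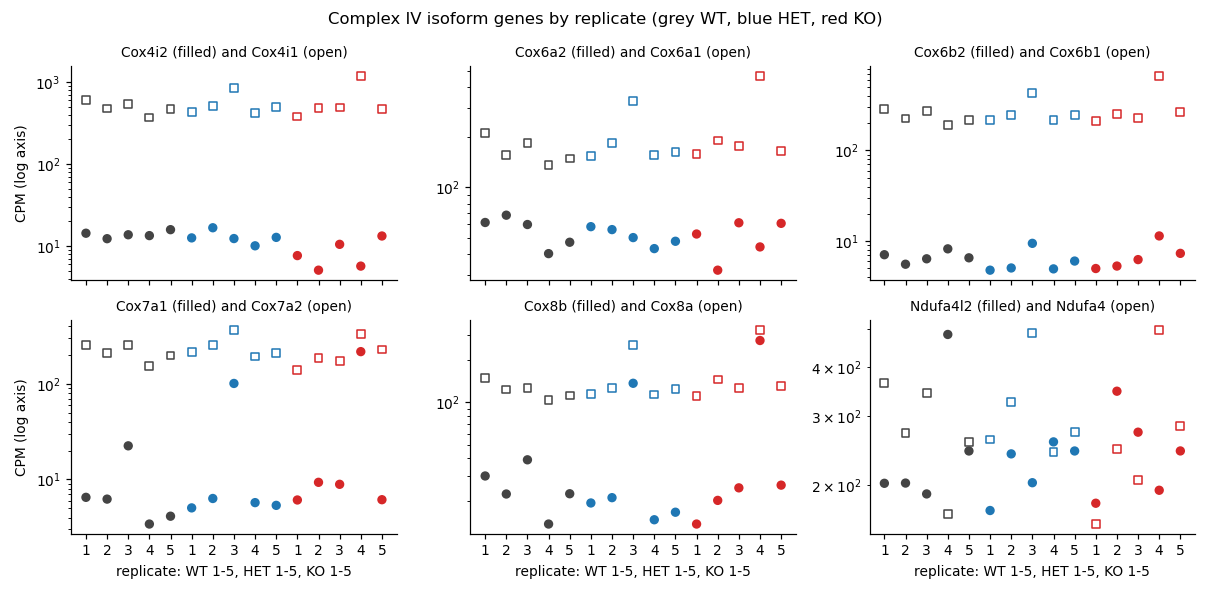
CPM (log axes) of isoform genes of complex IV and their broad partners in each replicate of WT, HET and KO. Cox7a1 and Cox8b reach 216 and 276 CPM in KO replicate 4, where their partners Cox7a2 and Cox8a are at 329 and 328 CPM, and Cox4i2, Cox6a2, Cox6b2, Cox7a1 and Cox8b lie below their partners in all 15 replicates.

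Cox6a2, the muscle form of subunit 6a, was at 31.9 to 68.2 CPM, and lay inside that range in HET replicate 3 and KO replicate 4 (43.9 CPM in the latter). Its broad partner Cox6a1 was at 329 and 467 CPM there and at 137 to 211 CPM elsewhere. The KO vs WT log2 fold change of Cox6a2 was -0.14 ± 0.17 (edgeR adjusted p = 0.661). Ndufa4l2, known to respond to low oxygen, ranged from 172 to 484 CPM with the highest value in WT replicate 4, and its log2 fold change was -0.10 ± 0.25 (adjusted p = 0.854). Cox6b2, the testis form of subunit 6b, was at 6.76 ± 0.982 CPM in WT and 7.06 ± 2.60 CPM in KO, against 238 ± 40.2 CPM of Cox6b1 in WT (SD, n = 5). Cox7b, whose testis form was below the count minimum, had a log2 fold change of 0.11 ± 0.29 (edgeR adjusted p = 0.862).

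A family of 7 relations between isoform genes and marker sums was computed on log2(CPM + 1), with permutation p-values adjusted over the 7. Cox6a2 followed the skeletal muscle sum over the 15 replicates (Pearson r = 0.95, permutation p = 1e-05, the smallest that 100000 resamples can give, adjusted 3.5e-05; Spearman rho = 0.86, permutation p = 0.00011, adjusted 0.000385). Without the 2 replicates farthest from the median sum, r was 0.89, and in title series 2 alone it was 0.95. Cox7a1 and Cox8b had r of -0.18 and -0.13 with that sum (permutation p = 0.521 and 0.640), and rho of -0.05 and 0.03. For the brown adipocyte sum no r over all replicates is given, because HET replicate 3 and KO replicate 4 stand apart. Among the other 13, Ucp1 was at 37.5 CPM in WT replicate 3 and at 0.146 to 2.42 CPM in the rest. Dio2 was at 6.26 to 11.3 CPM there, so outside WT replicate 3 the sum hardly reflects Ucp1. Over the other 13, Cox7a1 had r = 0.95 (permutation p = 9e-05, adjusted 0.000315) and rho = 0.87 (permutation p = 0.00022, adjusted 0.00154). Cox8b had r = 0.73 (permutation p = 0.00296, adjusted 0.00691) and rho = 0.63 (permutation p = 0.0237, adjusted 0.0552). With WT replicate 3 and KO replicate 3, the farthest of these, also left out, r was 0.78 for Cox7a1 (permutation p = 0.00705) and 0.47 for Cox8b (permutation p = 0.144), so the relation of Cox8b rested on those samples. Cox4i2 and Ndufa4l2 had r of 0.17 and 0.25 with the pericyte sum (permutation p = 0.534 and 0.355), and rho of 0.16 and -0.15. Without WT replicate 4 and HET replicate 4, the farthest from the median of that sum, r was 0.08 and -0.42.

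Promoter stretches are shown for Cox7a1, Cox8b and Sdha, the 3 members with the largest ratio of KO replicate 4 to the WT mean, and for the broad partners of the first 2. Each line gives 200 bases upstream of the first annotated start, 5′ to 3′ in the direction of the gene, from RefSeq on build GRCm38.p6, with motif matches in capitals.
Cox7a1, chr7:30183944-30184143, plus strand: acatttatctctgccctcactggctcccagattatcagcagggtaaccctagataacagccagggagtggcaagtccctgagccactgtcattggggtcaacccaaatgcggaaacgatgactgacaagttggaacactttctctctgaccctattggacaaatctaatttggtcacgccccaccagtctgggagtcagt
Cox7a2, chr9:79759879-79760078, minus strand: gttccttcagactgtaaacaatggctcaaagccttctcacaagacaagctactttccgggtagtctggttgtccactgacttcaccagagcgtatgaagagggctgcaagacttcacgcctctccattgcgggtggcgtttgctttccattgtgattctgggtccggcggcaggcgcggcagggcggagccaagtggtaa
Cox8b, chr7:140900447-140900646, minus strand: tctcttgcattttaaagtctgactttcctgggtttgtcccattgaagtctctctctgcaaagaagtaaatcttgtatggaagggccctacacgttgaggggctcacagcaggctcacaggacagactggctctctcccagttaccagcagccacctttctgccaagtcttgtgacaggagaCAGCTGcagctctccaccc
Cox8a, chr19:7217617-7217816, minus strand: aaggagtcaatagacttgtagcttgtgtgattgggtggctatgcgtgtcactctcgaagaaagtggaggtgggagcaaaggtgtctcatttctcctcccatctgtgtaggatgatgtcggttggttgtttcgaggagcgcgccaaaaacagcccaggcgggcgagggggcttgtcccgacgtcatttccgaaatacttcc
Sdha, chr13:74350281-74350480, minus strand: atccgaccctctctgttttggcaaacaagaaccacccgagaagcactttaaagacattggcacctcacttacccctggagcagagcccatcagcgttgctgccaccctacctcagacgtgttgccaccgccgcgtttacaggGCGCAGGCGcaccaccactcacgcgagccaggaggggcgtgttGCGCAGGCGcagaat

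The motifs searched, on both strands, were GCGCANGCG (the core bound by NRF1), CCGGAAG (bound by ETS factors such as GABPA), the E-box CAGCTG and TATAAA, and no allowance was made for overlaps between them. NRF1 and GABPA are known activators of respiratory genes. RefSeq entries of 300 bases, 250 before and 50 after a start, were matched to 68 of the 82 members. The NRF1 core was in 19 of 68 windows (27.9%) against 6.47% of all 27025 promoters, and the ETS motif in 15 (22.1%) against 9.12%. The E-box was in 6 (8.82%) against 16.1%, and TATAAA in 6 (8.82%) against 14.2%. In the printed stretches Sdha held 2 NRF1 cores and Cox8b 1 E-box. The 300-base windows of the same genes held more. There Sdha had 3 NRF1 cores, Cox8b 2 E-boxes and 1 TATAAA, and Cox8a 2 ETS motifs, while Cox7a1 and Cox7a2 had none. A match is a run of letters, and binding was not measured.

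The comparison of HET with WT asks whether loss of a single copy goes with a change. No member was called and none reached the adjusted p, as for all genes (0.0% and 0.0% by edgeR), and DESeq2 and limma-voom put no member there, against 0.0177% and 0.0% of genes. The 2 members with an unadjusted p below 0.05 (2.44%, against 1.58% of all genes) were Atp5g2 and Atp5s, both higher in HET. Atp5g2 was at 0.728, 0.724, 0.506, 0.800 and 0.806 CPM in WT and 1.14, 0.967, 1.40, 0.911 and 0.814 CPM in HET, and was the 1 member without overlap (1.22%, against 0.374% of genes). The median log2 fold change was 0.16, with 75 members above 0, and -0.05 without HET replicate 3, with 15 above 0.

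KO was also compared with HET. By edgeR no member was called and none reached the adjusted p, against 0.181% and 0.333% of all genes. An unadjusted p below 0.05 was found for 5 members (6.10%, against 16.0%), Cox4i2, Cox7c, Atp5g2, Atp5l and Atp5s, each lower in KO. DESeq2 put Cox7c, Atp5g2 and Atp5l at an adjusted p up to 0.1 (3.75% of 80 members, against 4.84% of genes), and limma-voom put Atp5l there (1.22% of members, against 0.456%). The log2 fold change was -0.72 ± 0.16 for Atp5l (edgeR adjusted p = 0.105) and -0.89 ± 0.22 for Atp5g2 (adjusted p = 0.132), the 2 members without overlap (2.44%, against 2.25% of genes). The median was 0.08, and was -0.24 without KO replicate 4, 0.29 without HET replicate 3 and -0.04 without both. Each pair of these 3 comparisons shares a genotype.

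Other mitochondrial genes, with glycolytic and ribosomal genes for contrast, were followed as 8 lists, and no gene of them had an edgeR adjusted p up to 0.1 in any of the 3 comparisons. The 16 genes of the tricarboxylic acid cycle, which supplies electrons to complexes I and II, had a median KO vs WT log2 fold change of 0.70, and of 0.07 without HET replicate 3 and KO replicate 4, with 1 at an unadjusted p below 0.05. Of all genes tested, 19.3% had such a p with all replicates and 13.9% without those replicates. All 16 values were above 0, and Suclg2, a subunit of succinyl-CoA ligase, had the lowest, 0.30. The 7 testable subunits from mitochondrial DNA ran from 0.39 (mt-Nd1) to 0.50 (mt-Nd4), with a median of 0.44 that was 0.08 without both. The 5 nuclear subunits and carriers outside the naming rule ran from -0.17 (the ATPase inhibitor Atpif1) to 0.49 (Cyc1, of complex III), with medians of 0.35 and -0.06.

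The 44 assembly factors that could be tested had 3 higher and 3 lower at an unadjusted p below 0.05 in KO vs WT. Of all genes tested, 19.3% had such a p in either direction, the share to set beside each count here. The assembly factors ran from -0.48 (Pet100) to 0.64 (Atpaf2) around a median of 0.04. The 76 mitochondrial ribosomal proteins had 3 higher and 4 lower, from -0.62 (Mrpl23; edgeR adjusted p = 0.102) to 0.62 (Mrps36), with a median of 0.05. Mrpl23 and Mrps36 have low counts, with means of 2.95 and 1.11 CPM in WT. Without HET replicate 3 and KO replicate 4 their values were -0.54 and 0.05. The 15 regulators of mitochondrial biogenesis had 4 higher and 0 lower, from -0.08 (Tfam, which packs mitochondrial DNA) to 0.82 (Ppargc1b, a coactivator of respiratory genes; edgeR adjusted p = 0.351). Ppargc1b was at 19.2 CPM in HET replicate 3 and 27.3 CPM in KO replicate 4 against at most 8.94 CPM, and its relative Ppargc1a at 14.4 and 21.7 CPM against at most 7.71 CPM.

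The 17 glycolysis genes had a median of 0.01 in KO vs WT, from -0.45 (Gapdh) to 0.38 (Pgam1). At an unadjusted p below 0.05, 0 were higher and 1 lower, where 19.3% of all genes had such a p. Of 80 cytosolic ribosomal protein genes 40 had an unadjusted p below 0.05 by edgeR and a value below 0, where 9.18% of all genes did, and 0 had one with a value above 0. The values, passing or not, ran from -0.99 (Rpl24) to 0.81 (Rpl23a, unadjusted p = 0.0859), with a median of -0.25, and DESeq2 put 15 lower ones at an adjusted p up to 0.1, as it did 3.34% of all genes. Rpl24 and Rpl23a were below 1 CPM and Gapdh averaged 3.88 CPM in KO, so these extremes are genes with low counts. Per replicate, the median log2 difference of the cytosolic ribosomal protein genes from the WT mean was -0.44 to 0.01 in KO. In WT it was -0.16 to 0.19, so the genotypes overlapped, and genes measured in the same replicates are not independent. Of the other lists, DESeq2 put 2 regulators of biogenesis, both higher, and 2 mitochondrial ribosomal proteins, both lower, at an adjusted p up to 0.1 in KO vs WT, and limma-voom put 5 genes of the 8 lists there. Over all genes the shares at that adjusted p were 8.71% with DESeq2 and 2.89% with limma-voom.

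**Figure D5:**
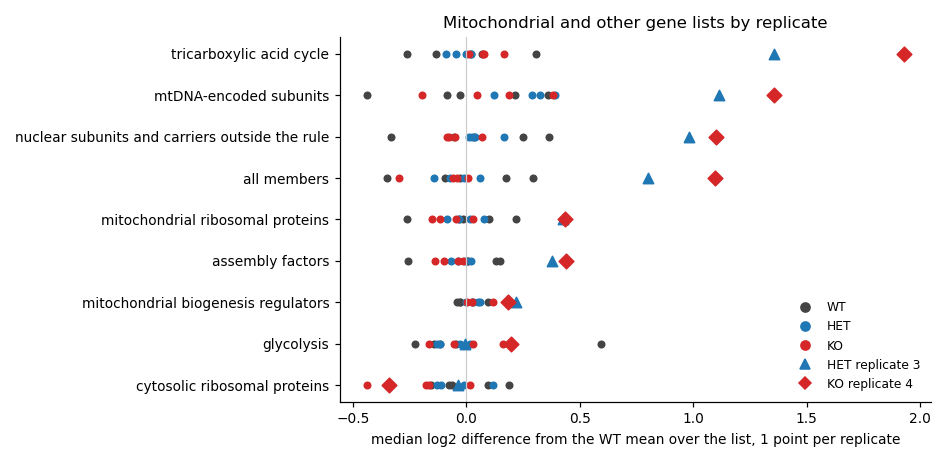
Median log2 difference from the WT mean over the genes of each list, 1 point per replicate. HET replicate 3 and KO replicate 4 stand at 1.35 and 1.93 for the tricarboxylic acid cycle, 1.11 and 1.36 for subunits from mitochondrial DNA and 0.80 and 1.09 for the members, and at -0.01 and 0.20 for glycolysis.

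Members were shorter than most genes. The median transcript had 752 bases (range 360 to 3171) against 2824 over the 14799 tested genes with a length. Across members the Spearman rho between length and KO vs WT log2 fold change was 0.32, and 0.49 without HET replicate 3 and KO replicate 4, against 0.25 over all genes, where genes are not independent replicates. With the length trend removed from each replicate, the KO vs WT median was 0.37, with 75 members above 0 and none at an edgeR adjusted p up to 0.1 (12 higher and 2 lower at an unadjusted p below 0.05, or 17.1%, against 18.2% of all genes).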

How the data were processed

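Poly(A)-selected RNA of skin was sequenced, and the authors deposited a table of read counts per gene symbol for 24 libraries, not normalized. Per the labels, the submitters' processing notes name STAR, HTSeq and hg19. The symbols are mouse, and which mouse build and annotation were used, and whether strand was, is not given in the sources used here. Library totals were 8976020 to 20964721 counts, and their number limits the precision of low members such as Atp5g2. Libraries of the same title number and genotype were summed into 15 replicates.

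Counts were filtered with filterByExpr, scaled with TMM factors and tested in 1 fit of all 3 genotypes with edgeR 4.0.16 (robust quasi-likelihood, R 4.3.3), with p-values adjusted by Benjamini-Hochberg over 17094 genes. A call needed an adjusted p up to 0.1 and a log2 fold change of at least 1 in either direction. CPM were TMM-scaled, and differences and correlations between replicates used log2(CPM + 1). Transcripts were from GENCODE M21 and promoters from RefSeq GRCm38.p6. The fits were tested on simulated data first.

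Alternatives were RLE factors, DESeq2 1.42.0, limma-voom (limma 3.58.1), other low-count filters, an adjusted p of 0.05, each title series alone, 24 separate libraries, title number 35 (WT replicate 2) as 2 columns, 2 genotypes at a time, covariates for skeletal muscle markers and Y-linked genes, removal of a transcript length trend, and leaving out each replicate. Leaving out HET replicate 3 together with KO replicate 4, and a brown adipocyte covariate, were chosen after seeing the data. The members and lists were chosen with earlier results of these data known.

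The genes named are members with an adjusted p up to 0.1 (none by the edgeR fit), in each complex the highest and lowest KO vs WT log2 fold change and the 3 highest WT levels per length, the tissue isoforms of complex IV with their partners, Sdha to Sdhd, and members whose KO and WT replicates did not overlap, and of each list the highest and lowest fold change. The highest of the tricarboxylic acid cycle list is not reported here. Atp5e, Atp5g1, Atp5g2, Atp5h, Atp5s, Cox7c, Ppargc1a and mt-Cytb were named after their values were seen.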

Additional observations from a re-analysis of the deposited data

Results flagged for a closer look

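In groups of 5 replicates, the gap between the highest or lowest replicate and its nearest neighbour was divided by the range of the group and compared with Dixon's critical value of 0.71. Of 81 groups examined 30 were past it. Chance puts about 1 in 20 separate groups past this value, but these groups overlap, since they are measured on the same 15 replicates, the sums contain the members, and some members were named for their fold changes, so their number is no test. HET replicate 3 gave 13 of them and KO replicate 4 gave 12.

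The summed level was far above the other replicates in HET replicate 3 and KO replicate 4, with gap ratios of 0.872 and 0.871 for complex I, 0.93 and 0.962 for complex II, 0.878 and 0.905 for complex III, 0.777 and 0.792 for complex IV, and 0.863 and 0.91 for complex V. Single members were also high in these replicates, with ratios of 0.987 and 0.985 for Cox7a1, 0.948 and 0.954 for Cox8b, 0.93 and 0.928 for Sdha, 0.833 and 0.949 for Ndufs1, and 0.901 and 0.94 for Atp5b. Cox6b2 was high in HET replicate 3, with a ratio of 0.733. The brown adipocyte sum gave 0.987 in HET replicate 3 and 0.996 in KO replicate 4, and the adipocyte sum 0.832 and 0.792.

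In WT, replicate 3 was the highest for the brown adipocyte sum (0.94) and for Cox7a1 (0.838), and the lowest for Atp5g2 (0.729). Ndufa4l2 was high in WT replicate 4 (0.815), and the suprabasal keratinocyte sum in KO replicate 2 (0.777).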

How the results depend on the processing

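No paired analysis was run, because the labels give no litter or other link between samples of different genotypes. The count of members at an edgeR adjusted p up to 0.1 in KO vs WT was 0, and it was 2 with DESeq2, 2 with limma-voom, 3 with 24 separate libraries, 2 with title number 35 as 2 columns, 2 with the skeletal muscle covariate, and 0 to 2 when 1 replicate was left out. In KO vs HET these counts were 3, 1, 8, 1, 2, and 0 to 3. In the same order, the shares of all genes at that adjusted p were 8.71%, 2.89%, 23.7%, 7.18%, 4.88% and 0.170% to 10.9% in KO vs WT and 4.84%, 0.456%, 24.6%, 0.511%, 2.10% and 0.0586% to 5.44% in KO vs HET. The counts above 0 when 1 replicate was left out came without WT replicate 4, HET replicate 4, KO replicate 3 or KO replicate 5. Calls with the fold limit in KO vs HET numbered 0 to 1, the 1 call being Atp5g2 without KO replicate 5. Separate libraries of 1 replicate are not independent, so p-values from 24 libraries are too small.

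The median log2 fold change in KO vs WT was 0.24 and became -0.0612 in title series 1 alone, -0.11 without HET replicate 3 and KO replicate 4, and -0.0716 with the brown adipocyte covariate, with -0.11 to 0.35 when 1 replicate was left out. The marker sum behind that covariate was 809 and 2324 CPM in HET replicate 3 and KO replicate 4, against at most 106 CPM elsewhere. It mainly sets these replicates apart, and so is no separate check. Title series 1 holds a library of HET replicate 3 and none of KO replicate 4. In that series alone the median was 0.42 in HET vs WT and -0.45 in KO vs HET. Leaving out 1 replicate of the full set gave -0.24 to 0.29 in KO vs HET. Levels of members with shared transcript stretches are uncertain, because how reads with several possible origins were counted is not given in the sources used here. Why some mitochondrial subunits had almost no counts was not tested.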
